A study of Mus musculus with 12 samples.

Results

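Peroxisomes are small membrane-bound organelles that break down very-long-chain, branched-chain and dicarboxylic fatty acids, start the synthesis of ether lipids and dispose of the hydrogen peroxide that their oxidases make. Their matrix enzymes are made in the cytosol and imported by peroxins, the products of the Pex genes, which also build and divide the organelle. Adipocytes hold many small peroxisomes, and several of the genes are known targets of the nuclear receptor family of PPARs.

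The genes described here are 30 genes of peroxisome biogenesis and metabolism, picked by name from 27179 gene identifiers: 12 peroxins and 18 enzymes, transporters and acyl-handling proteins. All 30 could be tested in the model over all 12 libraries, and Acox2, near 0 in aged mice, was left out of the test of burn in aged mice by the low-count filter. Messenger RNA was sequenced from adipose tissue of C57BL/6J mice of genotype WT at day 7, with 3 libraries in each of 4 groups: untreated adult mice, scald-burned adult mice, untreated aged mice and scald-burned aged mice. The burn was a scald at 98 °C. The back was immersed for 10 s in mice of both ages, which burned 20% of the body surface, and the belly of adults for a further 2 s, which brought them to 30%. Buprenorphine is given as the drug for pain. The sources used here give no age in weeks, sex or fat depot. They do not say whether libraries are from separate mice, and the p-values rest on the spread between libraries, which may be technical. Age cannot be told apart from the separate count tables of the adult and aged libraries or, in burned mice, from burn size.

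Total counts ran from 25231506 to 46531070 per library. Levels are in CPM, gene counts scaled to a common library total after each total was adjusted by its TMM factor. These factors were computed over all 12 libraries, so levels, ranges and overlaps carry that adjustment. A gene is called higher or lower where the adjusted p of edgeR's quasi-likelihood test, corrected over all genes, is under 0.05. A pair of libraries stood apart in ways that touch the results: Adult control 1 was the lowest of its group in 25 of the 30 genes, and Aged burn 2 was the lowest of all 12 libraries in 21. The adipocyte markers checked the tissue label: their 9 genes summed to 20432 to 57961 CPM in adult controls and 44882 to 51473 CPM in aged controls. In burned aged fat that sum was 10186 to 27903 CPM, while 7 macrophage markers summed to 1499 to 5621 CPM against 261 to 421 CPM in aged controls. In bulk tissue, fewer cells of a type and less RNA per cell cannot be told apart. Other cell types marked the burned aged group or single libraries. The B cell markers summed to 14.4 to 37.4 CPM in burned aged mice, against 2.31 to 4.07 CPM in aged controls. The neutrophil markers summed to 23.1 to 1707 CPM in burned aged mice, against 3.91 to 6.97 CPM in aged controls. In Adult control 3 the neutrophil markers summed to 162 CPM, against 15.1 and 3.16 CPM in Adult controls 1 and 2. In Adult control 1 the B cell markers summed to 1184 CPM and the T cell markers to 494 CPM, against at most 8.5 and 8.7 CPM in the other adult controls. In Aged burn 2 the neutrophil, fibroblast and skeletal muscle markers summed to 1707, 12814 and 369.5 CPM, each above the other burned aged libraries. Brown or beige adipocyte markers (6 genes, Ucp1 among them) marked a whole group, with 1589 to 1972 CPM in burned adults against 77.9 to 211 CPM in adult controls and at most 61.3 CPM in any aged library. At these low aged levels, 3 of 5 tested markers were called higher after burn in aged mice and 1 lower, against 13.7% and 3.03% of all genes. How far these marker levels take part in the results below was not tested.

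Their mean log2(CPM + 1) was 5.58, 6.23 and 6.36 in adult controls 1 to 3 and 6.45, 6.43 and 6.45 in burned adults. In aged controls it was 6.11, 6.23 and 6.17, and in burned aged mice 5.76, 5.17 and 5.94. Every burned aged library was below every aged control, while adult controls 2 and 3 lay just below the burned adults and Adult control 1 further below. The adipocyte markers had means of 10.79, 9.35 and 11.16 in burned aged mice against 11.77, 11.90 and 11.87 in aged controls, and 10.42 in Adult control 1 against 11.64 and 11.42 in the other adult controls. The macrophage means were 8.27, 9.52 and 7.43 in burned aged mice and 5.57, 4.85 and 5.34 in aged controls. Aged burn 2, lowest for peroxisome genes and adipocyte markers, was highest for macrophage markers.

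**Figure D1:**
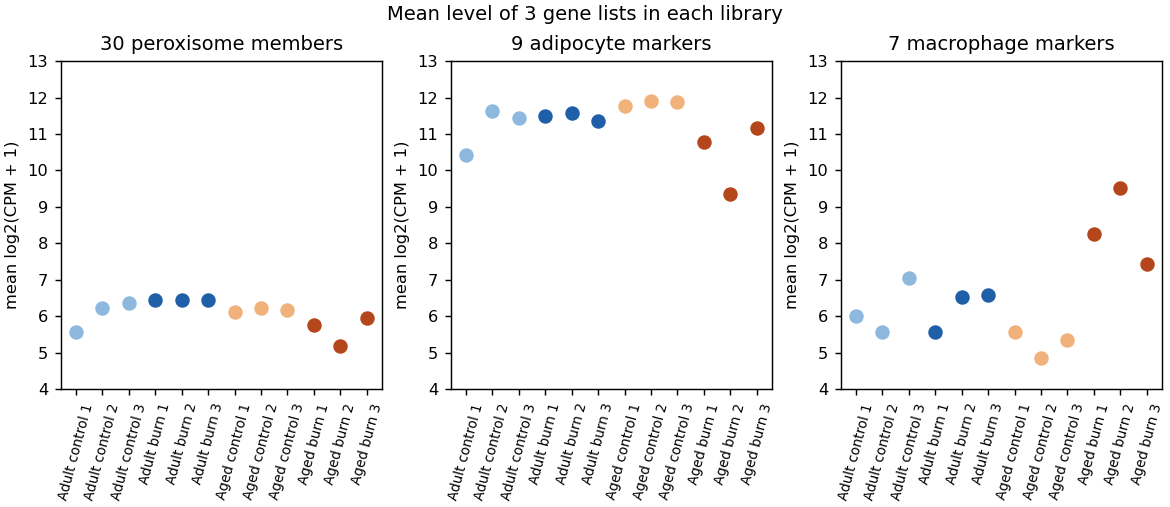
Mean log2(CPM + 1) (y axis) of the 30 peroxisome genes, 9 adipocyte markers and 7 macrophage markers in each of the 12 libraries (x axis, 1 point per library, coloured by group). Aged burn 2 is lowest in the first 2 panels (5.17 and 9.35) and highest in the third (9.52), and Adult control 1 is the lowest adult library in the first 2.

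**Figure D2:**
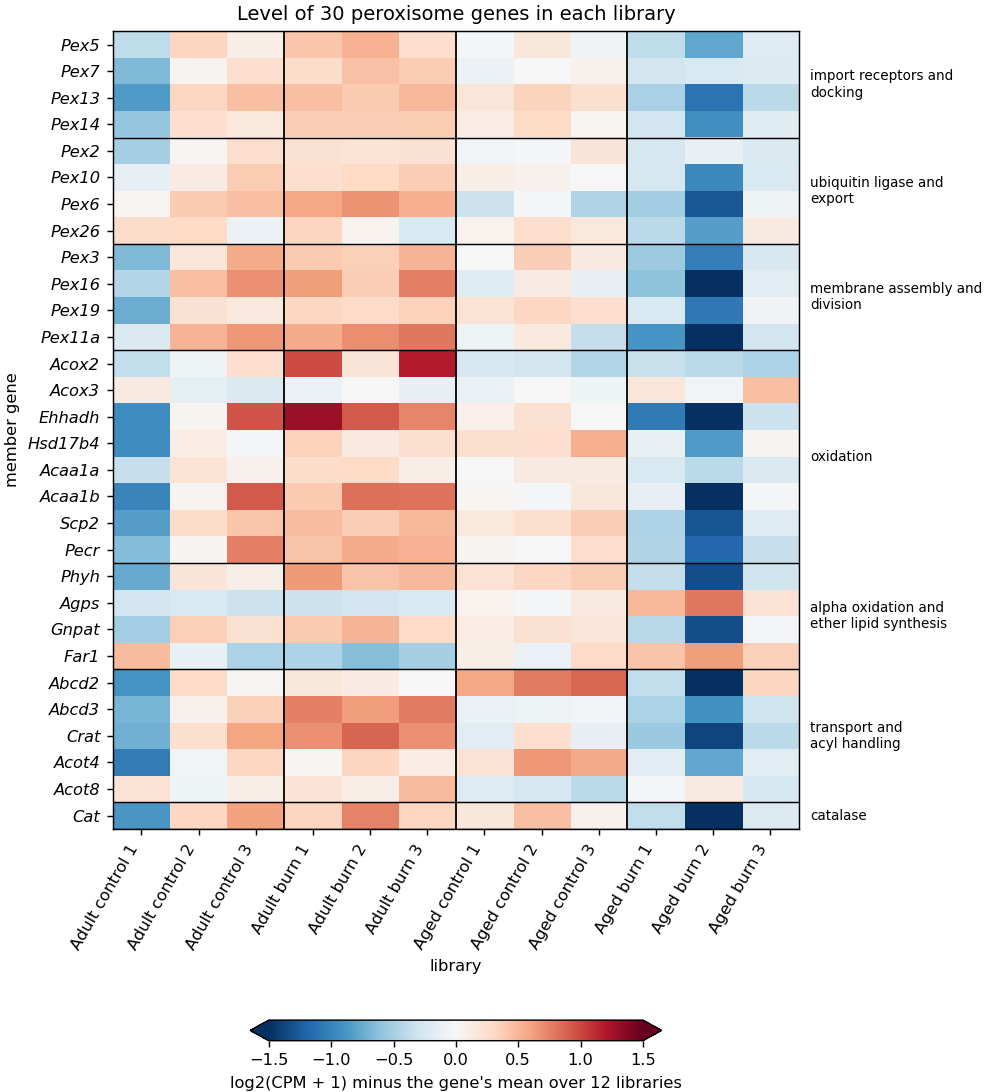
Level of the 30 genes (rows, by role) in the 12 libraries (columns), as log2(CPM + 1) minus the gene's mean over all libraries, with colours capped at 1.5 in either direction. Most rows are red in the adult burn columns and blue in the aged burn columns and in Adult control 1, and Agps and Far1 have the opposite colours in aged burn.

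The order of the group means was shared by most of the genes. Burned adults had the highest mean in 23 of 30 and burned aged mice the lowest in 26 of 30. The exceptions at the top were Hsd17b4, Abcd2 and Acot4, highest in aged controls, Acox3, Agps and Far1, highest in burned aged mice, and Pex26, highest in adult controls. The order of means was not counted over all genes. The libraries of burned and control adults overlapped in 22 of 30 genes, those of burned and control aged mice in 7. Of all genes, 6.49% did not overlap upward and 3.61% downward in adults, and 25.6% and 24.4% in aged mice. Per kilobase of exon, catalase was the most abundant, at 373 CPM per kb in adult and 398 in aged controls, followed by the sterol carrier protein gene Scp2 at 183 and 212.

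The upstream sequences of the genes called in any comparison, Pex13, Phyh and Abcd3, are shown with that of Far1, whose level ran the other way, so that they can be set side by side. They are the 250 bases before an annotated start, from RefSeq (GRCm38.p6), printed 5′ to 3′ on the strand of the gene. The annotated gene of Far1 starts at 113513719, so the last part of its window lies within the gene. That part holds its last CCAAT and most of the CCAAT before it. Abcd3 has a further window within the gene (chr3:121814910-121815159), which is not shown. Capitals mark GGGCGG (the GC box core) and CCAAT, on either strand.
Pex13, chr11:23665884-23666133, minus strand: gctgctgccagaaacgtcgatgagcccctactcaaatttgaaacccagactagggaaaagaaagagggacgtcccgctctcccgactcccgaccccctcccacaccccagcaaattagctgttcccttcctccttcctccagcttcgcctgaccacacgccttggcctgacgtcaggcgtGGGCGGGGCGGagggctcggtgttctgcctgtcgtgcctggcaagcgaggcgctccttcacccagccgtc
Phyh, chr2:4918746-4918995, plus strand: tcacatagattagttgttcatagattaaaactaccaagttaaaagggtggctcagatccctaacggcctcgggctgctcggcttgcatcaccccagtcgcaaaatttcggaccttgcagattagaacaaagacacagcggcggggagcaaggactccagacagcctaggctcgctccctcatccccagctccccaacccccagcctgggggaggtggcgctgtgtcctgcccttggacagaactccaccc
Abcd3, chr3:121815303-121815552, minus strand: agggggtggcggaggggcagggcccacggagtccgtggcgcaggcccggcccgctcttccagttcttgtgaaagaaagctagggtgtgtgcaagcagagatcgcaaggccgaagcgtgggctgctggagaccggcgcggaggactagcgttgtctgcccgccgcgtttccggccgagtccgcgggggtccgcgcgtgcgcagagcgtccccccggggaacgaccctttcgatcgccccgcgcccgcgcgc
Far1, chr7:113513584-113513833, plus strand: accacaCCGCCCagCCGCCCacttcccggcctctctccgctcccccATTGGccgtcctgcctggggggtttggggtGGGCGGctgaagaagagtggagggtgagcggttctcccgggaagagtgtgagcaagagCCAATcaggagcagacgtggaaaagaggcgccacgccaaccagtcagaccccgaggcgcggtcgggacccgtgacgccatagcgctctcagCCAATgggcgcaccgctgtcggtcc
The Pex13 window holds 2 overlapping GGGCGG, the Far1 window 3 GGGCGG and 3 CCAAT, and the Phyh and Abcd3 windows neither. The table of upstream windows covered 25 of the 30 genes, in 30 windows, the exceptions being Abcd2, Crat, Hsd17b4, Pex19 and Pex2. GGGCGG was in 17 of the 30 windows (56.7%), against 32.7% of all windows and 54.7% of those of genes tested. CCAAT was in 14 (46.7%), against 33.8% of all and 34.8% of tested genes' windows. The 6-letter nuclear receptor half-site AGGTCA was in 3 (10%), against 14% and 11.1%, and the direct repeat of AGGTCA with 1 base of any kind between its copies, the form that PPARs bind, was in 0 of 30 windows and in 0.0335% of all windows. CACGTG, the E-box, was in 2 (6.67%), against 6.02% and 7.97%. These are matches of letters on both strands of 1 short window per start and say nothing of binding.

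In aged mice, where the comparison asks what the burn did to aged fat, Pex13 fell and was the only one of 29 tested genes past the threshold. The call rate of lower genes over the whole table was 3.03%, and that of higher genes 13.7%, so 1 lower call of 29 is near the background. The direction was more one-sided than the calls: 25 of 29 fold changes were below 0, against 50.8% of all genes, with a median log2 fold change of -0.60 against -0.01 for all genes. The libraries of burned mice lay below every control library in 21 of 30 genes, against 24.4% of all genes, and above in 2, Agps and Far1, against 25.6%. At an unadjusted p under 0.05, 15 of the 29 passed, against 38.5% of all genes. Without Aged burn 2 the median was -0.38, and the libraries still did not overlap, downward, in 21 genes (26.5% of all genes).

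Pex13 encodes a membrane protein of the docking complex through which loaded import receptors enter the peroxisome (Entrez 72129, GRCm38 chr11:23646843-23665883, minus strand; 2 exon bases shared with the opposite-strand gene Pus10). Its level was 143.2, 159 and 149.1 CPM in aged controls and 89.64, 57.92 and 95.07 CPM in burned aged mice. Every burned library was below every control, and Aged burn 2 was the lowest of the 12 libraries. The mean fell from 150 ± 7.97 to 80.9 ± 20.1 CPM (SD, n = 3 each), a log2 fold change of -0.89 ± 0.20 (SE, edgeR adjusted p = 0.0339). In adults the values were 69.87, 157.1 and 173.2 CPM in controls and 173.3, 165.7 and 179.4 CPM after burn, close together except for Adult control 1, with a log2 fold change of 0.37 ± 0.32 (adjusted p = 0.791). The aged call was lost without any 1 of the 3 aged controls (adjusted p 0.111 to 0.125) or without Aged burn 1 (0.0828), and in the model over all 12 libraries (0.0567), with log2 fold changes from -0.69 to -1.02 over leaving out each library in turn.

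The other import factors had the same sign in aged mice and were not called. Pex5, the receptor of the carboxyl-terminal targeting signal, was at 93.6 ± 8.24 CPM in aged controls and 67.4 ± 13.6 after burn (log2 -0.46 ± 0.17, adjusted p = 0.107), and Pex14, the partner of Pex13 in docking, was at 69.4 and 46.2 CPM (log2 -0.58, adjusted p = 0.103). Pex7, the receptor of the amino-terminal signal, stood at 30.6 and 26.0 CPM (log2 -0.23). In Pex14, 1776 exon bases are shared with an opposite-strand gene, so its reads may be mixed. The ubiquitin ligase subunits Pex2 and Pex10 and the receptor export factors Pex6 and Pex26 had log2 fold changes from -0.24 to -0.53, with adjusted p from 0.164 to 0.508. Pex6, an ATPase that pulls receptors out of the membrane, was the most abundant of these 4, at 64.5, 80.39 and 58.98 CPM in aged controls and 56.31, 32.65 and 77.29 CPM after burn, with overlap. In adults Pex6 was at 83.12, 106.9 and 111.1 CPM in controls and 121.7, 130.5 and 118.2 CPM after burn, without overlap (log2 0.29, adjusted p = 0.788). All 12 peroxins had negative fold changes in aged mice, with a median of -0.55.

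Pex3, Pex16 and Pex19 bring membrane proteins into the peroxisome, and Pex11a acts in its growth and division. Pex19, the cytosolic chaperone of membrane proteins and the most abundant of them (Entrez 19298, chr1:172126755-172136497), was at 249.2, 268.1 and 257.1 CPM in aged controls and 182.8, 101.6 and 206.8 CPM in burned aged mice. The groups did not overlap, but Aged burn 2 lay far below the other burned libraries, and the log2 fold change was -0.65 ± 0.27 (adjusted p = 0.129). In adults Pex19 was at 128.3, 252.4 and 238.2 CPM in controls and 267, 263.6 and 274 CPM after burn, again without overlap (log2 0.37, adjusted p = 0.788). Of these 4 genes Pex3 came nearest to a call in aged mice, with a log2 fold change of -0.75 ± 0.22 (adjusted p = 0.0664). Pex16 and Pex11a were at -0.60 and -0.76, with overlapping libraries.

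Of the oxidation enzymes, Scp2, whose product includes a thiolase for branched chains and a lipid carrier (Entrez 20280, chr4:108043830-108144971), was the most abundant. It was at 688.7, 730 and 793.4 CPM in aged controls and 445.3, 251.3 and 539 CPM after burn. All burned libraries were below all controls, with means of 737 ± 52.7 and 412 ± 147 CPM and a log2 fold change of -0.83 ± 0.30 (adjusted p = 0.0996). Adult controls had 346.2, 744.5 and 819.4 CPM and burned adults 848.8, 793.3 and 866.9 CPM, which overlapped (log2 0.39, adjusted p = 0.791).

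Ehhadh, the bifunctional enzyme for dicarboxylic acids, had the second most negative aged fold change after Abcd2, at -1.09 ± 0.39 (adjusted p = 0.097), from 63.6 ± 5.2 to 29.8 ± 16.2 CPM. Hsd17b4, the D-bifunctional enzyme for very-long and branched chains, was at 366 CPM in aged controls and 239 CPM after burn (log2 -0.60, adjusted p = 0.138). The trans-enoyl reductase gene Pecr was at 14.6 and 8.5 CPM (log2 -0.78, adjusted p = 0.0879). Acaa1a and Acaa1b encode peroxisomal thiolases that are close copies: 30.5% of the 50-base words of Acaa1b transcripts also occur in Acaa1a, so reads may be split between them. Their aged log2 fold changes were -0.37 ± 0.12 (adjusted p = 0.0813) and -0.56 (adjusted p = 0.431). The acyl-CoA oxidase gene Acox3 had a positive aged fold change (0.29, adjusted p = 0.193), and Acox2, an oxidase of branched chains and bile acid precursors, had 6, 7 and 1 counts in aged controls and 4, 2 and 0 counts after burn.

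Phyh encodes phytanoyl-CoA hydroxylase, which starts the alpha oxidation of phytanic acid (Entrez 16922, chr2:4918996-4938743). In aged controls it was at 263.8, 281.1 and 294.8 CPM and in burned aged mice at 177.3, 89.35 and 183.4 CPM, without overlap (log2 -0.89 ± 0.28, adjusted p = 0.0757). In adults the values ran the other way, with 133.9, 260.2 and 240.9 CPM in controls and 353.5, 304.9 and 316.8 CPM after burn, also without overlap (log2 0.61 ± 0.26, adjusted p = 0.788). Neither response was called by itself.

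The ether lipid genes did not share 1 direction. Gnpat, whose product adds the first acyl chain (Entrez 14712, chr8:124863033-124890057; 88 exon bases shared with an opposite-strand gene), was at 317.5, 344.6 and 331.3 CPM in aged controls and 219, 115.6 and 287 CPM after burn. The groups did not overlap, and the log2 fold change was -0.67 (adjusted p = 0.17). In adults Gnpat overlapped, at 204.8, 376.5 and 344.6 CPM in controls and 385.4, 417.4 and 356.5 CPM after burn (log2 0.32).

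Agps, which swaps that acyl chain for a fatty alcohol, and Far1, which makes the alcohol, had positive aged fold changes. They are given by library because of their sign, a choice made after their values were seen. Agps was at 57.42, 54.49 and 60.9 CPM in aged controls and 78.21, 96.08 and 64.24 CPM after burn, with Aged burn 2 the highest of all 12 libraries (log2 0.48 ± 0.17, adjusted p = 0.0947). In the model over all 12 libraries Agps, and not Pex13, was the member called. Far1 was at 46.15, 39.98 and 52.41 CPM in aged controls and 58.16, 66.99 and 55.22 CPM after burn (log2 0.39 ± 0.15, adjusted p = 0.105). In adults Far1 was at 60.01, 39.59 and 30.72 CPM in controls and 30.91, 27.26 and 30.02 CPM after burn, with a log2 fold change of -0.58 ± 0.26 (adjusted p = 0.788). Far1 was thus lowest on average in burned adults, the group where most of the other genes were highest, and Adult control 1 and Aged burn 2 were high rather than low in it.

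Abcd2 encodes a transporter of very-long-chain acyl-CoAs into the peroxisome that is abundant in fat (Entrez 26874, chr15:91145871-91192007). It was at 1007, 1152 and 1217 CPM in aged controls and 521.2, 183.2 and 842.5 CPM after burn. The groups did not overlap, but burned libraries ranged widely, and the log2 fold change of -1.12 ± 0.52 was not called (adjusted p = 0.158). In adults Abcd2 overlapped, at 360.4, 820.3 and 679.8 CPM in controls and 756.4, 734.4 and 666.6 CPM after burn (log2 0.21, adjusted p = 0.855).

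Abcd3, the transporter of branched-chain and dicarboxylic acyl-CoAs (Entrez 19299, chr3:121758904-121815302), was at 107.1, 109.2 and 112.1 CPM in aged controls and 82.63, 60.8 and 93.36 CPM after burn (log2 -0.46 ± 0.17, adjusted p = 0.105). Adult controls had 70.38, 120.5 and 148.2 CPM and burned adults 195.6, 178.2 and 197.8 CPM (log2 0.75 ± 0.27, adjusted p = 0.788). Groups did not overlap in either age, and the directions were opposite. Crat, which moves acyl groups onto carnitine, stood at 399 and 242 CPM in the aged groups (log2 -0.71, adjusted p = 0.123) and at 438 ± 183 and 670.5 ± 51.1 CPM in the adult groups (log2 0.61). The acyl-CoA thioesterase genes Acot4 and Acot8 had aged log2 fold changes of -0.99 (adjusted p = 0.0633) and 0.28 (adjusted p = 0.273).

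Cat encodes catalase, which breaks down hydrogen peroxide (Entrez 12359, chr2:103453904-103485153). It was at 994.7, 1203 and 924.7 CPM in aged controls and 683.8, 303.7 and 768.1 CPM after burn. The groups did not overlap, with a log2 fold change of -0.82 ± 0.37 (adjusted p = 0.151). In adults it was at 481.8, 1099 and 1340 CPM in controls and 1102, 1483 and 1099 CPM after burn, with overlap and a log2 fold change of 0.33 ± 0.40 (adjusted p = 0.831) that was near 0 without Adult control 1.

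**Figure D3:**
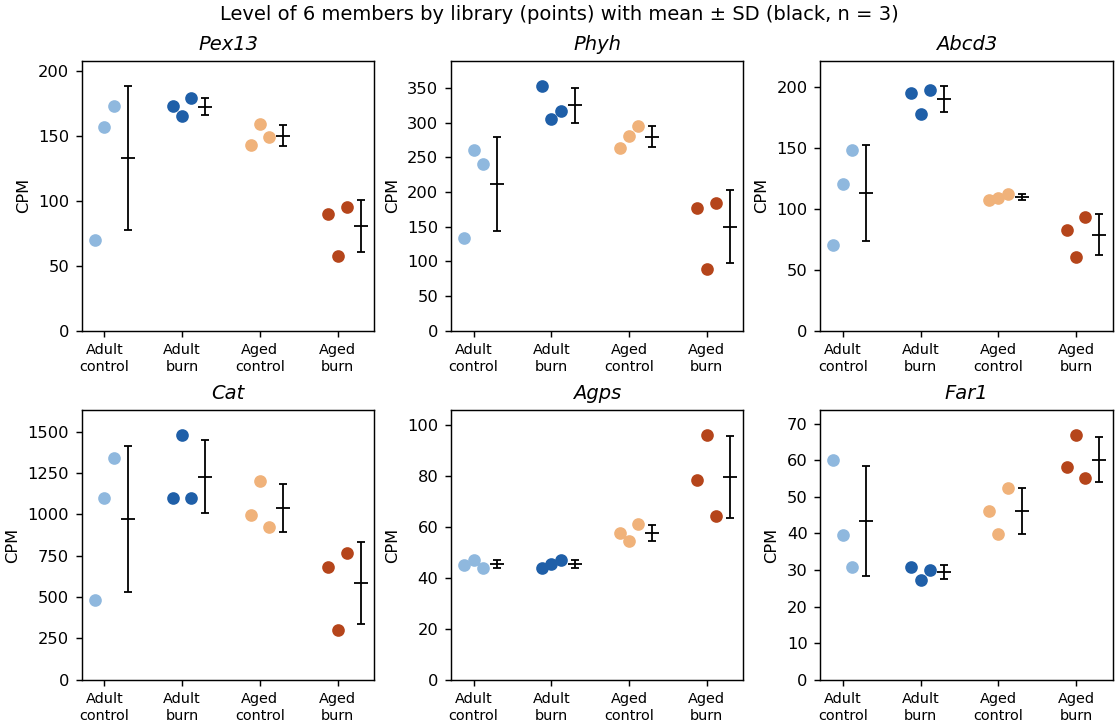
CPM (y axis, from 0) of Pex13, Phyh, Abcd3, Cat, Agps and Far1 in each library (points) by group (x axis), with mean ± SD in black (n = 3). Pex13, Phyh, Abcd3 and Cat are lowest in aged burn, with Pex13 at 80.9 ± 20.1 CPM, while Agps and Far1 are highest there.

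In adult mice none of the 30 genes was called by edgeR, against 0.0411% of all genes called higher and 0% lower, and none by DESeq2. At an unadjusted p under 0.05, 2 passed, Acox2 and Abcd3, against 4.37% of all genes. Acox2 had 3, 10 and 17 counts in adult controls and 44, 14 and 51 after burn, with overlap (log2 2.12 ± 0.80, adjusted p = 0.788). Of the 30 fold changes 26 were above 0, with a median of 0.34 against -0.04 for all genes, where 54.9% were below 0. Burned libraries lay above every control in 8 genes (Pex7, Pex14, Pex6, Pex19, Hsd17b4, Phyh, Abcd3 and Crat), against 6.49% of all genes, and below in 0, against 3.61%. The brown or beige adipocyte markers were also above 0 in 6 of 6, with a median log2 fold change of 3.57 and 2 called higher. Without Adult control 1, the library with the B and T cell markers, the median of the peroxisome genes was 0.09, and 10 genes did not overlap upward and 0 downward (8.92% and 5.99% of all genes). Without Adult burn 1, which had the highest skeletal muscle markers of the 12 libraries (mean log2 8.87), 9 did so upward and 1 downward (8.63% and 6.7% of all genes).

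Whether the burn response differed between the ages was tested directly, as the aged minus the adult log2 fold change. The response of Phyh was lower in aged mice by a log2 difference of -1.51 ± 0.41 (adjusted p = 0.0408) and that of Abcd3 by -1.21 ± 0.34 (adjusted p = 0.0437). These 2 of 30 compare with 2.22% of all genes called lower and 9.64% called higher, with 0 of the 30 called higher. Of the 30 differences 26 were below 0, against 47.6% of all genes, with a median of -1.04 against 0.05, and 20 had an unadjusted p under 0.05, against 34.5%. The call of Phyh was lost without Adult control 1, the library with the B and T cell markers (-1.26, adjusted p = 0.0576), any 1 burned adult, any 1 aged control, Aged burn 1 or Aged burn 2 (-1.25, adjusted p = 0.0561), and that of Abcd3 without any 1 burned adult, any 1 aged control, Aged burn 1 or Aged burn 2, and with no low-count filter (0.0533). Without both Adult control 1 and Adult burn 1, adjusted p was 0.13 for Phyh and 0.0974 for Abcd3.

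Next below the threshold were Far1, with the opposite sign (0.96 ± 0.31, adjusted p = 0.0634), Pex13 (-1.26 ± 0.41, adjusted p = 0.0652), Pex5 (-0.83 ± 0.27, adjusted p = 0.0686) and Pex14 (-0.97, adjusted p = 0.0721). All 12 peroxins had a negative difference, with a median of -0.86, and the 18 other genes had a median of -1.15. Ehhadh was at -1.88 ± 0.65 (adjusted p = 0.0776), Crat at -1.33 ± 0.47 (0.0803), Scp2 at -1.22 ± 0.47 (0.098), Abcd2 at -1.33 ± 0.64 (0.164) and Cat at -1.16 ± 0.57 (0.173).

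**Figure D4:**
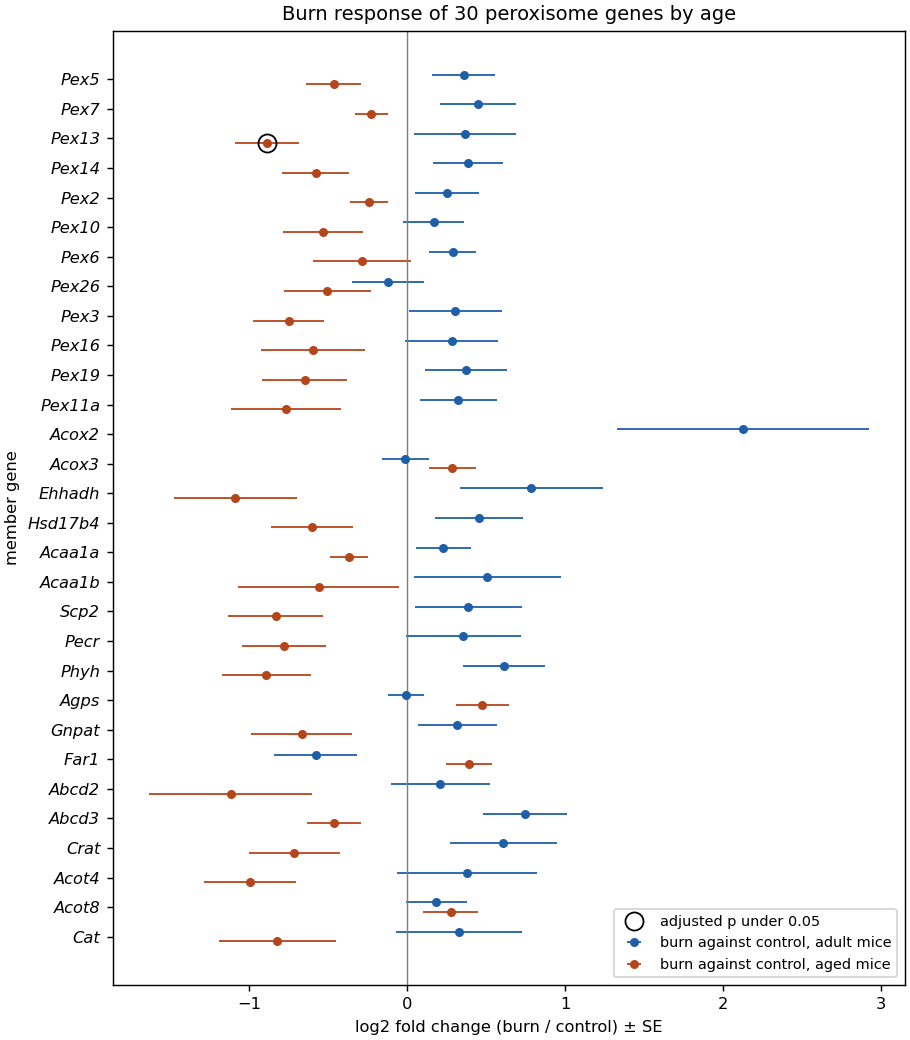
Log2 fold change of burn against control ± SE (x axis) for the 30 genes (y axis, by role) in adult mice (blue) and aged mice (orange), with a ring where the adjusted p is under 0.05. Most genes are right of 0 in adult and left of 0 in aged mice, Pex13 in aged mice (-0.89) has the one ring, and Acox2 has no aged value because it was not tested there.

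The control groups give the levels the responses start from. Between aged and adult controls none of the 30 genes was called by edgeR or DESeq2, against 0.238% of all genes higher and 0.186% lower by edgeR. At an unadjusted p under 0.05, 3 passed (Pex6, Agps and Acot8), against 26.3% of all genes. Fold changes split 16 above and 14 below 0, with a median of 0.05 against -0.06 for all genes, where 55.1% were below 0. That split turned with single libraries: it was 9 above and 21 below, with a median of -0.17, without Adult control 1, 22 and 8 (0.25) without Adult control 3, and 14 and 16 (-0.02) without Aged control 2. Aged controls lay above all adult controls in Hsd17b4, Phyh, Agps and Abcd2 (4 of 30, against 17.7% of all genes) and below them in Pex6 and Acot8 (2, against 14.9%). Abcd2 had the widest gap of the first 4, with means of 1125 ± 107 and 620 ± 236 CPM (log2 0.85 ± 0.45, adjusted p = 0.256). After burn the aged libraries were below all adult ones in 24 genes and above in Agps and Far1, against 20.9% and 26.9% of all genes.

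The genes were also read relative to the mean of the 9 adipocyte markers within each library. On that scale the burned aged libraries were above every aged control in 27 of 30 genes, with a median gap in log2 of 0.74, and 91.7% of all genes were likewise above. The libraries of the 2 groups overlapped in Ehhadh, Abcd2 and Acot4. The marker list itself had 9 of 9 negative aged fold changes, with a median of -1.20, against -0.60 for the peroxisome genes. In adults Phyh, Abcd3 and Crat were above every control relative to the markers, against 1.18% of all genes. Between the controls 25 of 30 were lower in aged mice relative to the markers, against 55.4% of all genes. Abcd2 was higher, against 1.23% of all genes. For aged against adult controls the marker list itself had 7 of 9 positive fold changes, none called. Its median log2 fold change was 0.61, against 0.05 for the peroxisome genes.

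Of 42 other genes of the organelle, listed by name, 37 were tested. In aged mice 2 were called, both lower after burn, against 3.03% of all genes, so that their share is near the background. Pex11g, a further division factor, fell from 18.9 to 10.1 CPM (log2 -0.90, adjusted p = 0.0343) and Nudt7, a coenzyme A hydrolase, from 51.7 to 29.3 CPM (log2 -0.81, adjusted p = 0.039). Both calls were lost without any 1 aged control or Aged burn 1, and Pex11g shares 1396 exon bases with an opposite-strand gene. Of the 37 fold changes 35 were negative, against 50.8% of all genes, with a median of -0.47. In adults 0 of 37 were called by edgeR (8 at an unadjusted p under 0.05, against 4.37% of all genes). There 36 fold changes were positive and the median was 0.40, against -0.04 for all genes, where 54.9% were below 0. How far this median rests on Adult control 1 was not tested. For the difference between the responses 6 were lower and 0 higher, against 2.22% and 9.64% of all genes, with a median of -0.99. The smallest adjusted p were those of Slc27a2 (0.0169), Pex11g (-1.25, 0.036) and Eci2, an enoyl-CoA isomerase (-0.98, 0.0416). The calls of Pex11g and Eci2 were lost without any 1 burned adult, any 1 aged control, Aged burn 1 or Aged burn 2, that of Eci2 also with no low-count filter (0.0544), and that of Slc27a2 without Adult burn 1, Adult burn 2, Aged control 2 or Aged control 3 (0.0534 to 0.0616).

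Slc27a2, a very-long-chain acyl-CoA synthetase, separated the burned adults from all other libraries, at 18.3, 14.5 and 15.4 CPM against 0.484, 0.781 and 1.53 CPM in adult controls. It was at 0.433, 0.373 and 0.330 CPM in aged controls and 0.252, 0 and 0.112 CPM in burned aged mice, with 419 exon bases shared with an opposite-strand gene. The brown or beige adipocyte markers separated the same libraries, at 1589 to 1972 CPM against at most 211 CPM elsewhere, and their part in the levels of Slc27a2, Ppara and Ppargc1a was not tested.

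Of 3 regulators named regardless of outcome, Ppara, the nuclear receptor that drives peroxisomal and mitochondrial fatty acid oxidation, was at 24.13, 44.33 and 38.3 CPM in adult controls and 139.6, 102 and 112.6 CPM in burned adults. It was at 25.89, 45.69 and 21.49 CPM in aged controls and 14.73, 5.381 and 21.65 CPM in burned aged mice. Burned adults stood far above every other library, yet the adult log2 fold change of 1.73 ± 0.25 was not called by edgeR (adjusted p = 0.269) and was called by DESeq2 (2.59e-06). Its aged fold change was -1.15 ± 0.52 (adjusted p = 0.153), and the difference between the responses was -2.88 ± 0.63 (adjusted p = 0.0233). That call was lost without Adult burn 1, Adult burn 2, any 1 aged control or Aged burn 1 (0.0508 to 0.073), and without both Adult control 1 and Adult burn 1 (0.0973).

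Ppargc1a, the coactivator PGC-1 alpha, was at 25.23, 31.74 and 17.9 CPM in aged controls and fell to 7.695, 3.302 and 10.7 CPM after burn, a log2 fold change of -1.78 ± 0.44 (adjusted p = 0.0415) that was lost without any 1 aged control or Aged burn 1. In adults it was at 12.64, 21.21 and 18.81 CPM and, after burn, 25.62, 39.46 and 42.59 CPM (log2 1.03, adjusted p = 0.788), and the difference between the responses was -2.81 ± 0.56 (adjusted p = 0.0186), lost without Adult burn 1, Adult burn 2, Aged control 2 or Aged control 3 (0.0534 to 0.0621). Pparg, the adipocyte PPAR, was not called in either age (log2 0.31 in adults and -1.08 in aged mice, adjusted p = 0.102 in the latter).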

How the data were processed

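Per the labels' protocols, RNA was extracted with Trizol, polyadenylated and made into directional libraries. The submitters' processing notes name FastQC, MultiQC, cutadapt, HISAT2, featureCounts and the mm10 build. The sources used here give no version, annotation or strand setting for the counting, and overlapping genes on opposite strands may share reads. The authors deposited raw gene counts in separate adult and aged tables, and 25275 of 27179 identifiers matched a GRCm38.p6 symbol. Rows without a symbol held 0.366% to 0.76% of a library's counts.

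The member genes, lists and alternatives were chosen with earlier results of these data known. The count test was edgeR 4.0.16 in R 4.3.3 (filterByExpr, TMM scaling, quasi-likelihood F tests, Benjamini-Hochberg over all genes, threshold 0.05). Its code was run on simulated counts with the same dispersion for all genes and no outlying library. That says nothing of calls that turn with single libraries. Burn was tested on the 6 libraries of each age, and the other contrasts over 12 libraries with 1 mean per group. SE was obtained from the fold change and its F statistic, as |log2 fold change|/√F. Alternatives were other scaling, no filter, DESeq2 1.42.0, a replicate block, all 12 libraries and left-out libraries. Values by library are given for members called in any comparison and the most abundant of each role. Of the list of other peroxisomal genes, 1 gene is not reported here and was left out of its counts. Of the rest, at most 3 called per comparison, by smallest adjusted p, are named. Exon lengths, overlaps and shared 50-base words are from GENCODE vM21. Of the 12 pairs of libraries within groups, none agreed within counting noise (lowest chi-square per degree of freedom 29.5). Protein targeting signals are not analysed here.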

Additional observations from a re-analysis of the deposited data

Results flagged for a closer look

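Each of these genes has a burn response that differs between the ages by the test of the difference itself (edgeR adjusted p under 0.05), given as the aged minus the adult log2 fold change. Among the 30 members these are Phyh (-1.51) and Abcd3 (-1.21). Among the other peroxisomal genes the aged response was lower for Slc27a2 (-5.70), Nudt12 (-1.98), Ech1 (-1.52), Dhrs4 (-1.30), Pex11g (-1.25) and Eci2 (-0.98). Slc27a2 is near 0 in aged mice, so the size of its value depends on the prior count. Among the regulators the differences were -2.88 for Ppara and -2.81 for Ppargc1a. Leaving out each of the 12 libraries in turn, the call was kept in 8 runs for Slc27a2 and Ppargc1a, 6 for Ppara, 4 for Abcd3, Pex11g and Eci2, 3 for Phyh and Nudt12, and 2 for Ech1 and Dhrs4. In burned mice age cannot be told apart from burn size.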

How the results depend on the processing

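Median-of-ratios scaling kept the member calls at 0, 1, 2 and 0 for burn in adults, burn in aged mice, the difference and the controls. No filter left 1 member (Phyh) for the difference. With DESeq2, 62, 5011, 3783 and 2184 genes were called, and 8 members in aged mice and 13 for the difference. The fit on all 12 libraries called 14 genes in adults. Without both Adult control 1 and Adult burn 1, edgeR called 0 genes in adults (278 at an unadjusted p under 0.05), 0 for the difference (3450), among them 0 members (11), and 18 between controls. Leaving out each library in turn, genes called ranged over 0 to 5 in adults, 0 to 5743 in aged mice, 0 to 4039 for the difference and 0 to 2011 between controls. Members called ranged over 0 to 15 in aged mice (7 without Aged burn 2, 15 without Aged burn 3, 0 without any other) and 0 to 14 for the difference (1 without Adult control 1, 5 and 9 without Adult controls 2 and 3, 14 without Aged burn 3, 0 without any other). No member was called in adults or between controls in any setting. The cause was not tested.

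Same-numbered burned and control libraries had deviations that correlated at 0.0169, 0.00101 and 0.234 in adults and -0.117, -0.211 and -0.065 in aged mice. Those of differently numbered libraries correlated at -0.278 to 0.274. The numbers were not taken to pair the libraries, but with 3 libraries per group these values cannot decide whether they do. With the replicate number as a block, edgeR called 0 genes in adults (455 at an unadjusted p under 0.05), 917 in aged mice, 0 for the difference (4480) and 0 between controls (3257), and 0 members in aged mice (9) and for the difference (20).

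Fold changes of the members changed sign in 14 of 360 values in adults (5 members), 0 of 319 in aged mice, 3 of 510 for the difference (Acot8) and 43 of 330 between controls (19 members), none of them called. Leaving out each library in turn, adult Abcd2 ranged from -0.073 to 0.45 and adult Cat from -0.0042 to 0.64, both lowest without Adult control 1, and adult Abcd2 was -0.10 without that library and Adult burn 1. Over the same runs Ppara between controls ranged from -0.60 to 2.58e-05, and in aged mice Fis1 ranged from -0.044 to 0.14, Mff from -0.10 to 0.15 and Dnm1l from -0.20 to 0.0026. Acox2 rests on at most 51 counts in a library, so depth limits its values.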

Other observations

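Fis1, Mff and Dnm1l, which divide both peroxisomes and mitochondria, were chosen from the other peroxisomal genes after their values were seen. Fis1 was at 84.8 ± 11.3 CPM in aged controls and 86.5 ± 7.51 CPM in burned aged mice (SD, n = 3 each), with a log2 fold change of 0.04 (edgeR adjusted p = 0.843). Mff was at 73.7 and 75.5 CPM (log2 0.05, adjusted p = 0.845) and Dnm1l at 90.8 and 83.2 CPM (log2 -0.11, adjusted p = 0.557). These values do not show that the 3 genes were unaffected.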
